A study of Drosophila melanogaster with 24 samples.

Results

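The onset of metamorphosis was measured in Zimbabwe-109, 1 of 4 Drosophila melanogaster strains of the study, by comparing prepupae with late larvae of that strain. The comparison took its 6 arrays from a set of 24 by their strain and stage labels, 3 of late larvae (replicates 1, 3 and 4) and 3 of prepupae (replicates 2, 3 and 4). The other strains, Oregon-R, Canton-S and Samarkand, each had 3 arrays of either stage, and these 18 arrays served as the reference against which the Zimbabwe-109 change was set. The larval stage carries the number 18 in its label and is late in the last larval instar, and the prepupal label stands for puparium formation. No strain carried a stated allele or treatment. Animals of every strain and stage grew at 25 °C, as larvae in uncrowded food with 0.05% bromophenol blue, a dye seen in the larval gut. Each replicate was a pool of about 120 mg of whole frozen animals, 60 to 80 individuals. RNA of different strains was extracted separately, so strain and extraction cannot be told apart between strains. Whole animals were used at both stages, and their sex was not stated. In such bulk samples, fewer cells of a type and less RNA per cell cannot be told apart.

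Puparium formation in flies is driven by a pulse of the steroid hormone ecdysone. The hormone binds a nuclear receptor of EcR and Ultraspiracle and switches on a short cascade of early transcription factors, which in turn switch on late genes. Larval tissues such as the midgut and the salivary glands are then broken down, feeding and growth stop, and adult structures grow from imaginal tissue.

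The arrays reported 16637 FlyBase transcript identifiers. The gene table used here listed 44 of them, 16 with 1 gene and 28 with several genes, and 16593 were not listed. The response is therefore described over all transcripts, by position between the stages and by size, and then for the named transcripts. Of 15 lists of genes of this transition, 10 had no named member, among them the ecdysone response, glue and larval serum lists and the haemocyte, muscle and male germ line markers. The stage label could therefore not be checked against stage or tissue markers, and it was checked against the other strains instead.

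The Zimbabwe-109 larvae lay near the larvae of the other strains, and its prepupae near theirs, but the arrays within each group were uneven. Each array was placed on an axis from the other 18 arrays, on which 0 is the mean larva and 1 the mean prepupa of the other 3 strains. The axis used 710 transcripts that changed at least 2-fold there, 163 rising and 547 falling, and the position is the median over these of each transcript's place on the log2 scale. Larval replicate 1 lay at 0.01, larval replicate 3 at 0.15 and larval replicate 4 at 0.24. Prepupal replicate 2 lay at 0.80, and prepupal replicates 3 and 4 both lay at 1.00. Larval replicate 4 and prepupal replicate 2 were thus the arrays of their groups shifted furthest towards the other stage, and the larval and prepupal positions did not overlap. This order depended on the scaling of the arrays. With no scaling larval replicate 3 lay at 0.30 and larval replicate 4 at 0.27, and prepupal replicates 2 and 4 both lay at 0.91. On axes built from the remaining 3 strains in the same way, larvae of Oregon-R lay higher, at 0.35 to 0.43, Canton-S larvae at -0.25 to -0.23 and Samarkand larvae at -0.16 to -0.08.

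Larval replicate 4 and prepupal replicate 2 did not stand between the stages in the same way for rising and falling transcripts. For the 163 rises, larval replicate 4 lay at 0.24 while larval replicates 1 and 3 lay at -0.02 and -0.01. Among the 35 rises of at least 2 log2 units on the axis, larval replicate 4 lay at 0.38 and the other 2 larval arrays at -0.02 and -0.01. The shift of this array was thus greater among the steepest rises. For the 547 falls, larval replicates 3 and 4 lay close together, at 0.21 and 0.24, and only larval replicate 1 lay near the larvae of the other strains, at 0.03. In the 113 falls of at least 2 log2 units, prepupal replicate 2 lay at 0.61 while prepupal replicates 3 and 4 both lay at 1.05. On this log2 scale prepupal replicate 2 thus lay between the stages for these transcripts. Taken on the linear intensity scale, larval replicates 1, 3 and 4 lay at 0.13, 0.38 and 0.41 for the 547 falls. For the 163 rises larval replicate 4 lay at 0.13. Prepupal replicate 2 lay at 0.90 on the linear scale for the 547 falls, beside 1.02 for both prepupal replicates 3 and 4. For the 163 rises it lay at 0.63, beside 0.78 and 0.79.

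**Figure D1:**
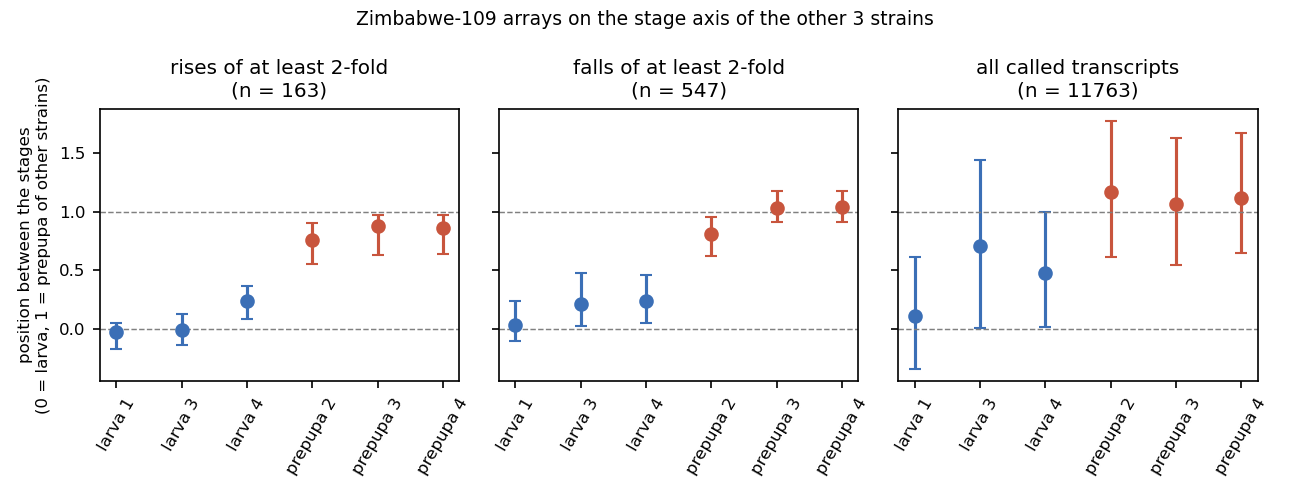
Position of each Zimbabwe-109 array between the larvae (0) and prepupae (1) of the other 3 strains; points are medians over transcripts and bars run from the lower to the upper quartile. Larval replicate 4 stands apart from the other larvae for the 163 rises, and larval replicates 3 and 4 stand close together for the 547 falls. Prepupal replicate 2 is the lowest prepupal array in both. Over all 11763 transcripts called on the axis the larval arrays spread from 0.11 to 0.70, and prepupal replicate 2 is the highest prepupal array, at 1.17.

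Single transcripts showed the same arrays apart. Prepupal replicate 2 was at least 1 log2 unit above the mean of the other 2 prepupal arrays for 84 transcripts and as far below for 2, and 80 of the 84 fell at puparium formation in the other strains. Larval replicate 4 was that far above its group for 20 transcripts and below for 0, and all 20 rose in the other strains. Of all 16637 transcripts, 11763 were called on the axis in either direction. Among transcripts at least 1 log2 unit apart, 73 in prepupal replicate 2 and 18 in larval replicate 4 were 2-fold axis transcripts. These counts are therefore not independent of the positions. Larval replicate 3 stood apart in another way. It correlated less with larval replicate 1 (r = 0.955 over all transcripts) than with prepupal replicate 2 (r = 0.957), and these 2 arrays had the lowest medians of deposited intensity, 2211 and 2176, against 2611 to 3289 in the other 4. Over all 11763 transcripts called on the axis, most with small changes, larval replicate 3 lay at 0.70, further from the larvae than larval replicate 4 at 0.48. Prepupal replicate 2 lay at 1.17 there, above prepupal replicates 3 and 4 at 1.06 and 1.12, and so not between the stages. Results are therefore given with all 6 arrays and without larval replicate 4 and prepupal replicate 2, and counts also without larval replicate 3 and prepupal replicate 2. The part of array brightness in these positions was not tested.

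The place of every larval array depended on which strains formed the axis. Against Oregon-R alone larval replicates 1, 3 and 4 lay at -0.07, -0.04 and 0.07. Against Canton-S alone they lay at 0.25, 0.42 and 0.45. Larval replicate 4 was the highest on both axes. Prepupal replicate 2 lay at 0.64 on the axis of Oregon-R alone, so it stood below 1 on that axis too.

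Between late larvae and prepupae of Zimbabwe-109, 4928 of 16637 transcripts changed (29.6%), 2708 upwards (16.3%) and 2220 downwards (13.3%). A transcript was called changed when its adjusted p was under 0.05 (limma, Benjamini-Hochberg over all transcripts). Most called changes were small, with a median size of 0.35 on the log2 scale. Rises were the smaller, at a median of 0.28 against -0.49 for falls. Below 0.25 in size, 1138 rises stood against 317 falls, whereas from 1 to 2 there were 82 rises and 321 falls and at 2 or more there were 20 rises and 71 falls. Large changes were thus mostly falls, and small called changes mostly rises. In all, 102 transcripts rose at least 2-fold (0.613%) and 392 fell at least 2-fold (2.36%).

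The excess of rises among all calls turned with the scaling, while the excess of falls among 2-fold changes held under each scaling tried. Of the calls, 55.0% were rises with quantile normalization, 45.1% with each array centred on its median and 13.8% with no scaling. Without scaling the median of all transcripts moved by -0.12 on the log2 scale, and 1315 transcripts were called. At 2-fold, 65 rose and 456 fell without scaling, and 86 rose and 366 fell with median centring. Rises were also the fewer among all calls without prepupal replicate 3 (1812 against 1877) and without prepupal replicate 4 (1753 against 1837).

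The groups did not overlap for many transcripts. All 3 prepupal arrays lay above all 3 larval arrays for 3799 transcripts (22.8%) and below them for 2844 (17.1%). Of the called rises 2430 (14.6% of all transcripts) were also free of overlap, and of the called falls 2141 (12.9%). None of the 102 rises and 392 falls of at least 2-fold overlapped.

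The spread within the groups followed the arrays described above. Over all transcripts the median SD was 0.12 in larvae and 0.08 in prepupae (n = 3 each). In the 2-fold rises the median level went from 11.69 to 13.31 on the log2 intensity scale, with median SDs of 0.33 in larvae and 0.12 in prepupae. In the 2-fold falls it went from 12.75 to 11.27, with median SDs of 0.22 and 0.30. The rises were therefore more uneven among larvae, and the falls more uneven among prepupae.

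Without larval replicate 4 and prepupal replicate 2, 4781 transcripts changed (28.7%), 2738 upwards (16.5%) and 2043 downwards (12.3%). The number called was thus nearly the same from 4 arrays as from 6. Of these, 4026 had been called with all 6 arrays, which is 81.7% of the calls from 6 arrays and 84.2% of those from 4, and 0 were called in opposite directions. The size of the shared changes was a median of 1.17 times as large without these arrays. Both arrays were left out because they lay between the stages for transcripts of at least 2-fold change on the axis. Larger changes without them, here and below, follow from that choice. Where these arrays stood far from their groups, smaller standard errors and adjusted p without them follow from it too. The 2-fold lists grew to 140 rises and 499 falls. Every one of the 102 rises and 392 falls from 6 arrays was called again in the same direction, and 38 rises and 107 falls reached 2-fold only without the pair. The 4 arrays are among the 6, so these calls are not independent of the first.

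Leaving out larval replicate 3 and prepupal replicate 2 gave 4944 calls, 2786 up and 2158 down, with 117 rises and 490 falls of at least 2-fold. Leaving out 1 array at a time gave 3578 to 5353 calls. The number was lowest without larval replicate 1, and highest without larval replicate 3.

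**Figure D2:**
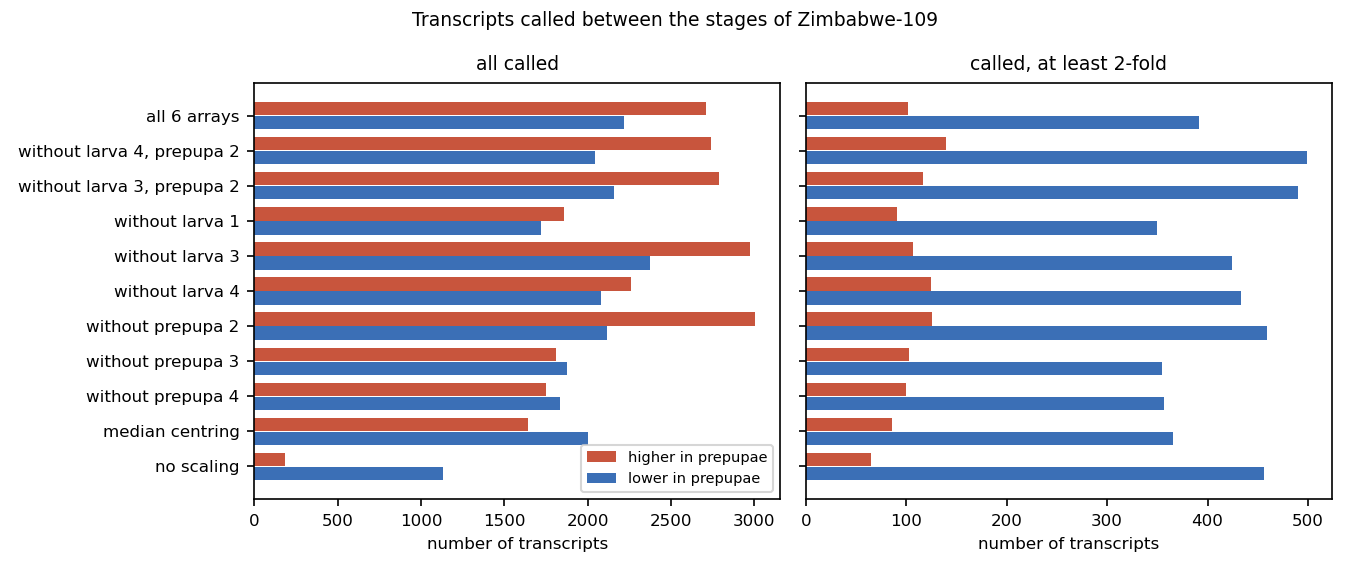
Number of transcripts called higher or lower in prepupae of Zimbabwe-109 (adjusted p under 0.05), in all and with a change of at least 2-fold, with 6 arrays, with arrays left out and with other scalings. Falls exceed rises among the 2-fold changes in every setting drawn, while among all calls rises exceed falls with all 6 arrays (2708 against 2220) and not with median centring, with no scaling, or without prepupal replicate 3 or 4.

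Calls were more common among bright transcripts. In 4 classes of equal size by mean intensity, the share called was 17.8%, 22.9%, 31.1% and 46.6% from the dimmest to the brightest. Of the 102 rises of at least 2-fold, 80 lay in the brightest class, as did 204 of the 392 falls.

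The largest rise in Zimbabwe-109 belonged to FBtr0075740, a transcript with no gene listed here. Its log2 intensity was 10.34, 10.43 and 13.07 in larval replicates 1, 3 and 4 and 14.28, 14.45 and 14.46 in prepupal replicates 2, 3 and 4. Larval replicate 4 alone was high among the larvae, and the groups did not overlap. The change was 3.12 ± 0.41 (SE), 8.67-fold, with an adjusted p of 6.2e-06. Without larval replicate 4 and prepupal replicate 2 it was 4.07 ± 0.07, against 4.30 in Oregon-R, 4.54 in Canton-S and 4.30 in Samarkand. Its difference from the mean of the other strains was -1.26 with all 6 arrays (adjusted p = 0.186) and -0.31 without the pair (adjusted p = 0.0228). Leaving out larval replicate 4, far from the other larvae, also shrank the spread behind the second p. The difference was also called without larval replicate 1 alone, at -1.73, and without larval replicate 4 alone, at -0.37.

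FBtr0076608, also with no gene listed, fell the most. Its larval values were 13.88, 13.91 and 13.75, and its prepupal values 12.36, 9.74 and 9.60. Prepupal replicate 2 was far above the other prepupae, and the groups still did not overlap. The change was -3.27 ± 0.42 (adjusted p = 4.1e-06), 9.68-fold lower, and -4.22 ± 0.10 without the pair. The mean change of the other strains was -3.36, so that the difference was 0.08 ± 0.48 (adjusted p = 0.952) with all 6 arrays. Without the pair, and so without the spread from prepupal replicate 2, it was -0.86, with an adjusted p of 8.07e-05. The direction of this difference thus turned on the arrays used.

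Among the named transcripts, 3 of the 16 with 1 gene were higher in prepupae, 3 were lower and 10 were not called. The called share, 37.5%, stood beside 29.6% of all transcripts. Their median change was -0.07, and that of all transcripts 0.06. Of the 16, 7 had groups that did not overlap, beside 22.8% of all transcripts with the prepupae above and 17.1% with the prepupae below. Without larval replicate 4 and prepupal replicate 2, 4 were higher and 1 was lower, beside 16.5% and 12.3% of all transcripts (28.7% called in all).

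Fatp1, a fatty acid transport protein, had the steepest change of the 16. It lay at 12.46, 11.79 and 12.12 in larval replicates 1, 3 and 4 and at 11.25, 11.31 and 11.24 in the prepupae. Every prepupal array was below every larval array, and the larvae were spread (SD 0.33) where the prepupae were close (SD 0.04). It fell by 0.86 ± 0.13 on the log2 scale (adjusted p = 3.67e-05), 1.82-fold, and by 0.85 ± 0.17 without the pair. With no scaling and the pair left out it was -0.76 and not called (adjusted p = 0.0889). The same transcript changed by -0.76 in Oregon-R, -1.30 in Canton-S and -1.32 in Samarkand. NaPi-III, named as a sodium and phosphate cotransporter and in the same list of lipid and transport genes, changed by -0.19 ± 0.12 (adjusted p = 0.263). It passed at -0.33 without larval replicate 3, its lowest larval array.

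Structural genes of the membrane skeleton and basement membrane gave 1 fall among 2 members, beside 13.3% of all transcripts called lower. Nothing is read from counts in lists this short. The spectrin alpha-Spec, which lines the inner face of the plasma membrane, lay at 11.49, 11.23 and 11.19 in larvae and 10.69, 10.55 and 10.63 in prepupae. These groups did not overlap either. It fell by 0.68 ± 0.24 (adjusted p = 0.0367), but its adjusted p was 0.0506 to 0.129 when any 1 of the 6 arrays was left out and 0.0668 without the pair. LanA, the alpha chain of laminin in the basement membrane, had larval values of 13.26, 13.13 and 13.33 and prepupal values of 13.17, 13.09 and 13.14. It was not called, with a change of -0.11 ± 0.06, and passed at -0.16 without larval replicate 3.

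Nutrient signalling was represented by mio and Wdr24, which belong to the GATOR2 complex upstream of the growth kinase complex TORC1. For mio the larval values were 11.34, 11.18 and 11.32 and the prepupal values 11.03, 11.14 and 11.08. The groups were separate by a narrow gap. It fell by 0.19 ± 0.07 (adjusted p = 0.0359), and the adjusted p was 0.216 without the pair and 0.0761 with median centring. The call was also lost in a fit of the 6 Zimbabwe-109 arrays alone (0.104). Leaving out larval replicate 1 or 4, or prepupal replicate 2 or 4, lost it as well (0.0879 to 0.134). Wdr24 changed by -0.04 ± 0.06 and was not called.

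Of 4 chromatin genes, 1 rose with all 6 arrays, beside 16.3% of all transcripts called higher. His4r, a histone H4 gene outside the replication-dependent cluster, lay at 12.74, 12.93 and 12.83 in larvae and 13.12, 13.01 and 13.19 in prepupae. Its prepupal arrays were all higher. It rose by 0.27 ± 0.08 (adjusted p = 0.0101), with an adjusted p of 0.0501 without the pair and 0.104 with median centring. The call was also lost from the 6 Zimbabwe-109 arrays alone (0.059), without larval replicate 1 (0.0614) and without prepupal replicate 4 (0.062). SuUR, which holds back replication in the polytene chromosomes of larval tissues, lay at 12.186, 12.001 and 12.260 in larvae and 12.11, 12.48 and 12.33 in prepupae. Prepupal replicate 2 overlapped the larvae. SuUR was not called with all 6 arrays (0.15 ± 0.08, adjusted p = 0.141) and passed at 0.31 ± 0.07 without the pair (adjusted p = 0.00466). The remodeller kis and the deacetylase HDAC3 gave -0.09 ± 0.12 and -0.03 ± 0.12.

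Ubiquitin genes gave 1 rise among 2, beside 16.3% of all transcripts called higher. The adaptor rdx, which in the Hedgehog pathway brings the transcription factor Ci to a ubiquitin ligase, lay at 12.87, 12.79 and 12.92 in larvae and 12.98, 13.25 and 13.17 in prepupae. Prepupal replicate 2 was the lowest of its group and close to the highest larva. It rose by 0.27 ± 0.07 (adjusted p = 0.00387) and by 0.38 without the pair, with an adjusted p of 0.102 under median centring. Uba1, the enzyme that activates ubiquitin, changed by -0.13 ± 0.08 and was not called.

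Outside the lists, CG31178 rose. Its values were 11.35, 11.51 and 11.47 in larvae and 11.88, 11.99 and 11.88 in prepupae, with no overlap. The rise was 0.47 ± 0.07 (adjusted p = 1.24e-05), and it lost its call only with no scaling, with all 6 arrays (adjusted p = 0.333) or without the pair (0.229). The transcript sle, named slender lobes for its brain phenotype, changed by 0.16 ± 0.07 (adjusted p = 0.0742) and passed at 0.23 without the pair. CG16974 and fend gave -0.20 ± 0.10 and 0.03 ± 0.10. The 10 transcripts that were not called changed by -0.20 to 0.16, with adjusted p from 0.0742 to 0.863.

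Named transcripts with several genes were 28, of which 26 had 2 genes, 1 had 3 and 1 had 4, and the signal cannot be divided between them. They were described as a whole group after the values had been seen. With all 6 arrays 3 were higher, 4 were lower and 21 were not called, a called share of 25.0% beside 29.6% of all transcripts. Their median change was 0.01. Without the pair of arrays 4 were higher and 5 were lower, beside 16.5% and 12.3% of all transcripts (28.7% called in all).

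The steepest rise of these was that of CG44000/CG44001/CG33995. It lay at 12.26, 11.93 and 12.25 in larvae and 12.68, 13.09 and 12.95 in prepupae. The groups were apart, with prepupal replicate 2 the lowest of its group. The rise was 0.76 ± 0.11 (adjusted p = 1.91e-05), and it lost its call without scaling (adjusted p = 0.0744). Pbp49/CG42516, whose first gene encodes a subunit of a complex that starts transcription of small nuclear RNA genes, rose by 0.18 ± 0.05, and Mvk/CG33672, with mevalonate kinase, by 0.15 ± 0.05. Their adjusted p were 0.0151 and 0.0351, and both lost the call with median centring (0.147 and 0.0986). Both also lost it from the 6 Zimbabwe-109 arrays alone (0.164 and 0.185). Pbp49/CG42516 lost it without larval replicate 1 or 3, or prepupal replicate 3 or 4 (0.0511 to 0.0875). Mvk/CG33672 lost it without larval replicate 1 or 4, or prepupal replicate 3 or 4 (0.0903 to 0.18).

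Of the 4 called falls in this group, 3 are described here. ND-MNLL/CG45089, with a subunit of respiratory complex I, lay at 11.14, 11.46 and 10.96 in larvae and 10.79, 10.51 and 10.45 in prepupae. The larvae were spread, with replicate 3 high, and no array overlapped. It fell by 0.61 ± 0.10 (adjusted p = 0.00015) and by 0.82 without the pair. CG8026/CG45085 fell by 0.38 ± 0.09 and CG6191/CG45088 by 0.27 ± 0.07. Both lost the call with no scaling (adjusted p = 0.061 and 0.363) and with the replicate block (0.0559 and 0.0592), and CG6191/CG45088 also from the 6 arrays alone (0.0541). PIG-P/Tcs6 and CG10570/CG42502 were called only in settings that left out prepupal replicate 2, with changes of 0.27 and -0.59 without the pair.

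CG17325/CG42305 fell in Zimbabwe-109 and fell further in the other strains. It lay at 11.85, 11.82 and 11.75 in larvae and 11.21, 11.08 and 11.18 in prepupae, with SDs of 0.05 and 0.07. The arrays of a stage were close together and the stages were far apart. The change was -0.65 ± 0.06 (adjusted p = 4.8e-08), against -2.37 in Oregon-R, -2.41 in Canton-S and -1.01 in Samarkand. The prepupal levels were alike, at 11.15 in Zimbabwe-109 and 11.03, 11.10 and 11.18 in the others, while the larval level of 11.81 stood below 13.40, 13.51 and 12.19. The fall was thus smaller from a lower larval level. The stage change differed from the mean of the other strains by 1.28 ± 0.07 (adjusted p = 6.48e-10), and by 1.22 without the pair. With no scaling and the pair left out, its stage change was -0.64 and not called (adjusted p = 0.0879).

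**Figure D3:**
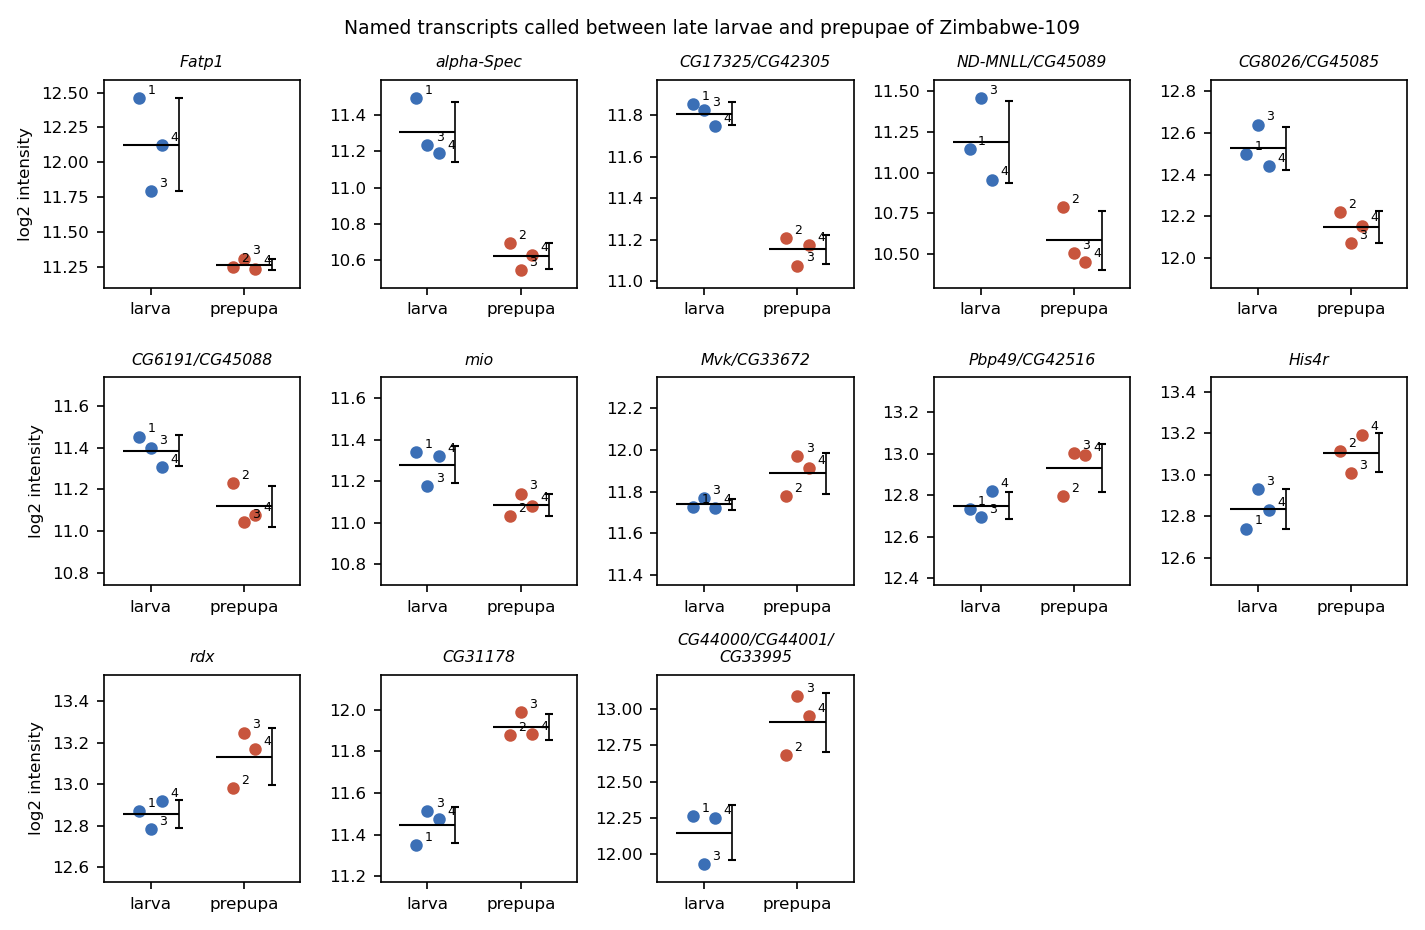
Log2 intensity of the 13 named transcripts called between the stages, in each Zimbabwe-109 array (numbers are replicates), with the group mean as a line and the SD of 3 arrays as a bar. The vertical axes differ between panels. In 12 of the 13 panels the groups do not overlap, and in Pbp49/CG42516 prepupal replicate 2 lies just under larval replicate 4. Among all called transcripts, 2430 of the 2708 rises and 2141 of the 2220 falls are also free of overlap.

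Most of the response of Zimbabwe-109 was shared with the other strains. Of the 102 rises of at least 2-fold, 96 were called upwards in each of the other 3 strains, and 0 were called in none. Among the 392 falls of at least 2-fold 337 were called downwards in each, and 3 in none. In the other direction, 161 of the 163 rises on the axis of the other strains were called upwards in Zimbabwe-109, and 539 of the 547 falls were called downwards. These shares come from lists chosen for large changes, and the strains share 1 scaling and 1 estimate of the spread.

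The size of the response was a median of 0.73 of the change in the other strains for the 163 rises and 0.79 for the 547 falls. Since the axis transcripts were chosen for large changes in the other strains, these shares are a description. Without larval replicate 4 and prepupal replicate 2 they were 0.86 and 0.90, and without larval replicate 3 and prepupal replicate 2 they were 0.73 and 0.91. The share for rises thus moved with larval replicate 4.

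Calls in single strains gave unequal lists. Canton-S had 9439 calls, which took in 90.7% of the Zimbabwe-109 calls in the same direction and of which these made up 47.3%. Samarkand had 8451, with shares of 88.5% and 51.6%. Oregon-R had 2781, with shares of 40.2% and 71.2%. Its larvae lay towards prepupae on the axis of the remaining strains, and whether this bears on the count was not tested. Opposite calls numbered 34 against Canton-S, 24 against Samarkand and 29 against Oregon-R.

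The stage change of Zimbabwe-109 differed from the mean change of the other 3 strains for 719 transcripts (4.32%) by a test of the difference itself. In 502 of these the change had the same sign and was smaller in Zimbabwe-109, in 76 it was larger and in 141 it had the opposite sign. The excess of smaller changes shrank without larval replicate 4 and prepupal replicate 2, to 267 smaller, 183 larger and 180 of opposite sign among 630 (3.79%). Of the 719, 468 (65.1%, and 74.3% of the 630) were called both ways, and 0 of these in opposite directions. Without scaling 117 differences were called.

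Against single strains, the change differed for 2380 transcripts from that of Canton-S, 702 from Oregon-R and 482 from Samarkand. Of the 2380, 1927 were smaller in Zimbabwe-109. The difference was thus called most often against Canton-S. Its larvae lay furthest below 0, on an axis of the remaining 3 strains that included Zimbabwe-109. Its arrays also had the widest spread of log2 intensity before scaling, at 1.48 to 1.72 between the quartiles. Whether either bears on the count was not tested.

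Among transcripts changed at least 2-fold in Zimbabwe-109, 25 of the 102 rises and 75 of the 392 falls differed from the other strains. The change was smaller in 22 of the 25 rises and 51 of the 75 falls. Larger changes were thus 3 among rises and 24 among falls.

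A few transcripts changed in the opposite direction to the other strains or in Zimbabwe-109 alone. Of 4724 transcripts called both in Zimbabwe-109 and in the mean of the other strains, 30 had opposite signs, and the difference was called for each of these. With both changes called in opposite directions, a called difference was nearly fixed by that choice and adds no support. Without the pair of arrays 28 of the 30 were again called with the sign they had in Zimbabwe-109, from a part of the same arrays. A further count of 178 were called in Zimbabwe-109 and in none of the other strains, which alone does not show that they differ. The difference itself was called for 31 of the 178, 6 higher and 25 lower in prepupae, and 27 of the 31 met both criteria without the pair.

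FBtr0083971, with no gene listed, exceeded the rise of the other strains the most. Its larval values were 10.76, 11.50 and 11.48, and its prepupal values 13.01, 12.72 and 12.93. Larval replicate 1 was the lowest, and neither larval replicate 4 nor prepupal replicate 2 lay between the groups. The rise was 1.64 ± 0.16 (adjusted p = 2.25e-07), against 0.50 in Oregon-R, -0.01 in Canton-S and 0.67 in Samarkand. The difference was 1.26 ± 0.19 (adjusted p = 0.000274), and 1.31 without the pair. The larval mean of 11.25 stood below 11.90 to 12.65 in the other strains, while the prepupal mean of 12.89 lay within their range of 12.41 to 13.06.

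FBtr0079701, also unlisted, exceeded the fall of the other strains the most. It lay at 14.00, 13.84 and 13.75 in larvae and 12.66, 11.57 and 11.54 in prepupae. Prepupal replicate 2 was again the highest prepupa. The change was -1.94 ± 0.20 (adjusted p = 2.4e-07), against -0.24 in Oregon-R, -0.97 in Canton-S and -0.18 in Samarkand. The difference was -1.48 ± 0.22 (adjusted p = 0.000301), and -1.90 without the pair. Larvae of the other strains had means of 11.20 to 11.77, under the Zimbabwe-109 mean of 13.87, and the prepupal mean of 11.93 was also above theirs of 10.80 to 11.20. For both of these transcripts the strains stood further apart in larvae than in prepupae.

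**Figure D4:**
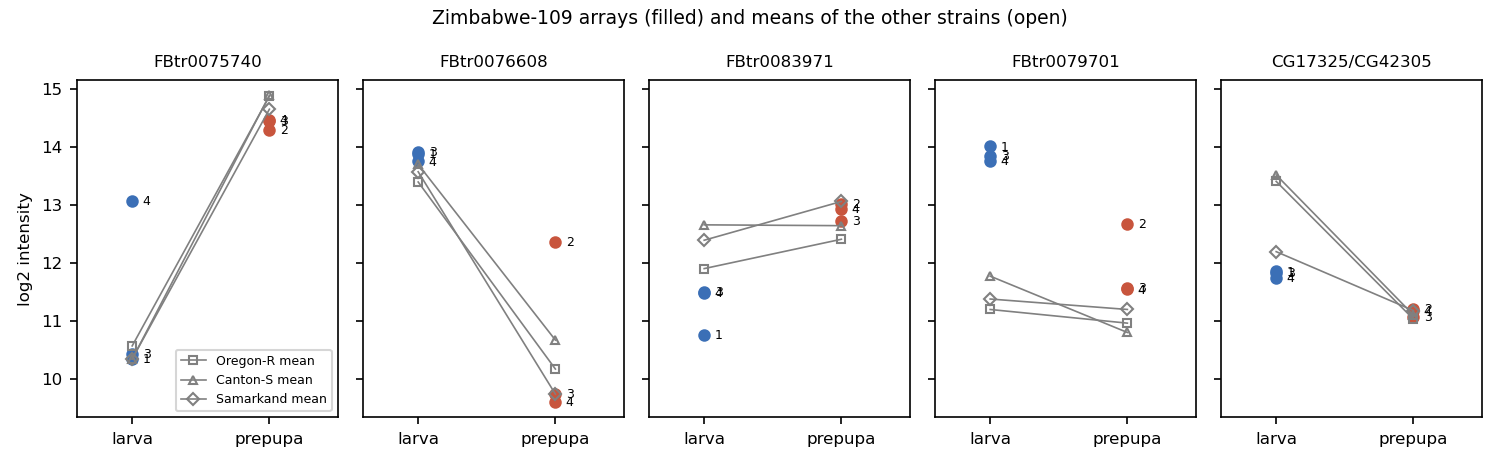
Log2 intensity of 5 transcripts in each Zimbabwe-109 array (filled, with replicate numbers) and the stage means of the other 3 strains (open, joined by lines). In FBtr0075740 larval replicate 4 and in FBtr0076608 prepupal replicate 2 lie between the stages; in FBtr0083971, FBtr0079701 and CG17325/CG42305 the Zimbabwe-109 larvae lie outside the larval means of the other strains.

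Among the 16 transcripts with 1 gene, differences from the other strains ran from -0.19 to 0.32, and 0 were called at an adjusted p under 0.05 in limma. The lowest adjusted p was 0.307, for NaPi-III. CG17325/CG42305 was the 1 difference called among the 28 transcripts with several genes. Differences were called for 4.32% of all transcripts, and nothing is read from counts this small.

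**Figure D5:**
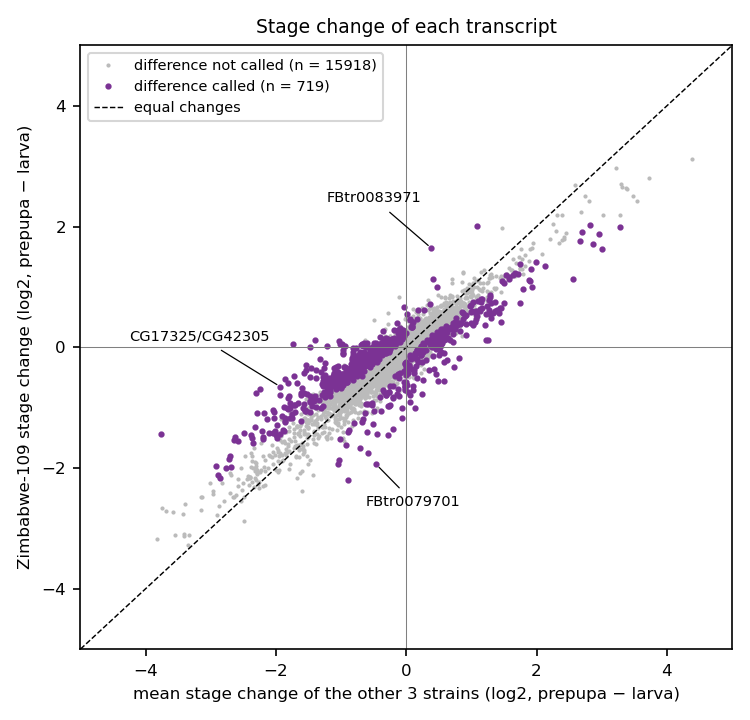
Stage change of each of the 16637 transcripts in Zimbabwe-109 (vertical) against the mean change of the other 3 strains (horizontal), both in log2 units, with the 719 transcripts whose difference was called in purple. Most points lie along the dashed line of equal changes; many called differences lie nearer to a change of 0 in Zimbabwe-109 than the line does, and 3 named examples are marked.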

How the data were processed

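Messenger RNA was measured on single-colour NimbleGen arrays, 1 per pooled sample. The authors deposited 1 table of intensity values, whole numbers on a linear scale with 16637 transcripts and 24 columns; the submitters' processing notes name RMA, without a version. Medians of the deposited intensity ran from 1936 to 3289 between arrays, so the arrays were not on a common scale, and whether background was subtracted is unknown.

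The log2 values were quantile normalized over all 24 arrays with limma version 3.58.1 (R 4.3.3), with no filter. A model with 1 mean for each of 8 groups (16 residual degrees of freedom) was followed by empirical Bayes moderation. Tests were two-sided, with Benjamini-Hochberg adjustment over all transcripts and a threshold of 0.05; a fold of 2 is 1 log2 unit. Errors of changes are standard errors of this fit, and those of levels are SDs of 3 arrays. The labels call the replicates biological. The number of arrays limits the precision. The code was tested on simulated data.

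Names came from a RefSeq gene table (Release 6) by transcript identifier. Every transcript with 1 gene was described, together with 4 by identifier: the largest called rise and fall, and the called rise and fall exceeding the other strains most with that difference called. Members and lists were chosen with earlier results of these data known. Alternatives covered scaling, background correction, dim transcripts, arrays left out, a replicate block, a minimum change and the 6 arrays alone. Gene sequences and coordinates were not used here.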

Additional observations from a re-analysis of the deposited data

Results flagged for a closer look

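The stage change in Zimbabwe-109 differed from that in the other strains, by a test of the difference itself, for 719 transcripts. Among transcripts described singly this held for CG17325/CG42305 (1.28 on the log2 scale, a smaller fall), FBtr0083971 (1.26, a larger rise) and FBtr0079701 (-1.48, a larger fall). FBtr0083971 and FBtr0079701 were picked for a called difference and for its size, so for them this was fixed by the choice.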

How the results depend on the processing

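The number of transcripts called between the stages was 1315 with no scaling (182 higher, 1133 lower), 3093 with the replicate block (1574 higher), 1393 when the test required a log2 change above 0.25 (399 higher, 994 lower) and 2849 from the 6 arrays alone (1211 higher). With median centring 1643 were higher. With larval replicate 4 and prepupal replicate 2 left out, 1554 were higher with median centring, and 934 were called with no scaling (212 higher, 722 lower). Leaving out 1 array at a time gave 3578 to 5353 calls, 1753 to 3007 higher and 1722 to 2376 lower, with 91 to 126 rises and 350 to 459 falls of at least 2-fold. At least 2-fold, 65 rose with no scaling; normexp background correction gave 165 rises and 655 falls, and 225 and 792 without both arrays. Differences from the other strains numbered 117 with no scaling, 50 with no scaling and both arrays left out, 451 without the dimmest 50%, 391 with the replicate block, 126 with the required change, and 504 to 978 with 1 array left out. The fewer arrays and transcripts, and the stricter test, are part of how those alternatives were built; for the scalings and background correction the cause was not tested.

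Larval and prepupal arrays share 2 replicate numbers, 3 and 4. Deviations from the group means correlated at -0.63 for number 3 and 0.37 for number 4. The highest value, 0.62, was between larval replicate 3 and prepupal replicate 2. Shifts of whole arrays enter such values, so they cannot show whether the numbers pair the samples.

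Positions moved with the choice of axis. Larval replicate 1 lay at 0.25 on the axis of Canton-S alone. Larval replicate 3 lay at 0.30 with no scaling, 0.70 over all called transcripts, -0.00534 for rises, -0.0447 against Oregon-R, 0.42 against Canton-S and 0.27 against Samarkand. Larval replicate 4 lay at 0.48, 0.0734 and 0.45 over all called, Oregon-R and Canton-S. Prepupal replicate 2 lay at 1.17 over all called and 0.645 against Oregon-R. Prepupal replicate 3 lay at 0.88 for rises, and prepupal replicate 4 at 1.12 over all called and 0.86 for rises.

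The difference of FBtr0076608 from the other strains was 0.08 with all 6 arrays and -0.86 without larval replicate 4 and prepupal replicate 2. With that pair left out it was -0.69 with median centring and -1.12 with normexp. It was -0.78 without larval replicate 3 and prepupal replicate 2, and -0.78 with the replicate block. With 1 array left out it ran from -0.82 (without prepupal replicate 2) to 0.57 (without prepupal replicate 4). Each of these settings with a negative value left out prepupal replicate 2 or was the block. In the block, larval replicate 1 and prepupal replicate 2 had no partner of the same number and did not enter the stage change. The settings that left out larval replicate 3 with prepupal replicate 2, or both arrays with another scaling or normexp, were chosen after seeing the data.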
